A study of Rattus norvegicus with 12 samples.

Results

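A group of 6 miRNAs of the rat soleus was followed: miR-322, miR-503, miR-351, miR-450a, miR-542-3p and miR-542-5p. The array lists them as rno-miR-322, rno-miR-503, rno-miR-351, rno-miR-450a, rno-miR-542-3p and rno-miR-542-5p. They were picked by name out of the 677 miRNAs on the array, and their star strands, the products of the opposite arm of the hairpin, served only for reference. The samples were soleus muscles, one of the slow postural muscles of the hind limb, from 12 male Sprague-Dawley rats aged 1 year, each on 1 array with 100 ng of total RNA. The dams of 6 rats (control offspring) ate control chow, and the dams of the other 6 (HF offspring) ate food rich in saturated fat and sucrose from before mating until the end of lactation. All 12 offspring were weaned onto standard chow, so the groups differ in the mother's diet up to weaning and not in their own after it. The comparison asks whether the mother's diet left a mark on muscle miRNAs in adult life. Which rats shared a dam is not given in the sources used here, so the p-values treat each rat as independent and measure the spread between these rats.

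miRNAs are cut from hairpin precursors, and each hairpin can yield a product from either arm. The bases 2 to 8 of the mature strand, the seed, do most of the pairing with target mRNAs, and miRNAs with the same seed have overlapping targets. miR-322, the rodent counterpart of human miR-424, and miR-503 are known from myoblast cultures, where they rise as cells leave the cell cycle and fuse, and where they target the cell cycle phosphatase Cdc25a. miR-351 carries the seed of the miR-125 family, which also acts in muscle differentiation and regeneration.

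The mature sequences are shown first because they decide which other miRNAs can share targets with the group and which probes can hold more than 1 miRNA. They are RefSeq's, matched by name for 6 of 6 miRNAs, and are written 5′ to 3′ with the seed in capitals. miR-322 and miR-322* come from the same hairpin, as do miR-542-5p and miR-542-3p.
miR-322: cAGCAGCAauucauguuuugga
miR-322*: aAACAUGAagcgcugcaaca
miR-503: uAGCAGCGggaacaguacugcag
miR-351: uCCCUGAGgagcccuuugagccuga
miR-542-5p: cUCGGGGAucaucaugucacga
miR-542-3p: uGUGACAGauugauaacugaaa
miR-450a: uUUUGCGAuguguuccuaaugu
miR-450b-5p: uUUUGCGAuguguuccuaaua

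All the hairpin genes lie on the minus strand of the X chromosome in the GRCr8 assembly, within a span of 5309 bases that holds 6 miRNA genes. In the direction of transcription the order is Mir322 (chrX:137726147-137726241), Mir503 (chrX:137725856-137725926), Mir351 (chrX:137725116-137725196), Mir542 (chrX:137722176-137722254), Mir450b-1 (chrX:137721078-137721146) and Mir450a1 (chrX:137720933-137721023). Mir322 and Mir503 are 221 bases apart, Mir351 follows after 660 bases and Mir542 after a further 2862, and 55 bases separate Mir450b-1 from Mir450a1. miR-450b-5p has no probe on the array, and its first 20 bases are identical to those of miR-450a, whose probe signal may therefore hold both miRNAs. The seed of miR-322 is shared with miR-15b, miR-16, miR-195 and miR-497, and that of miR-351 with miR-125a-5p and miR-125b-5p. Among the 555 of 677 array names matched to a sequence, no other miRNA carries the full seed of miR-503, miR-450a, miR-542-3p or miR-542-5p. The seed of miR-503 differs from that of miR-322 and of the miRNAs sharing it only in the last base.

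**Figure D1:**
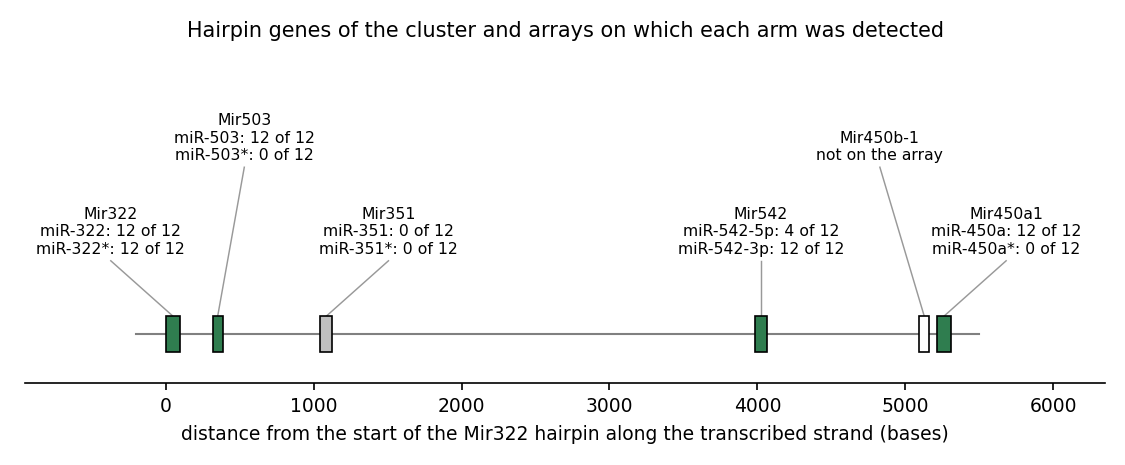
Map of the 6 hairpin genes, drawn to scale along the transcribed strand, with the number of the 12 arrays on which each arm was detected. Green boxes mark hairpins with an arm detected on all 12 arrays, the grey box marks Mir351, detected on none, and the white box marks Mir450b-1, which had no probe.

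Across the 12 arrays, 177 to 220 of the 677 miRNAs were detected, and the summed signal ran from 331758 to 567426. The arrays lay on 2 slides with 3 rats of each diet on each slide, rats C73, A110, C60 (control), C51, H3 and H1 (HF) on slide 1 and rats H10, A89, A75 (control), C25, H20 and A37 (HF) on slide 2. The muscle miRNAs miR-1, miR-133a, miR-133b and miR-206 were detected on all 12 arrays. One HF rat, H3, stood apart. Among these muscle miRNAs its scaled signal was 9354 for miR-206 against 30841 to 60699 in the other rats and 136123 for miR-1 against 51591 to 106415, whereas miR-133a and miR-133b lay within the range of the others. Its scaled signal of miR-499, which lies in a slow myosin gene, was 366 against 4553 to 9137 in the other rats, and miR-208b-3p, of another slow myosin gene, was not detected. The summed vessel miRNAs (miR-126, miR-143 and miR-145) were 4863 in H3 against 8811 to 11999.7 in the others, the summed blood miRNAs (5 of 5 detected everywhere) were 4211 against 1436 to 3933, and of 5 epithelial miRNAs, miR-200a and miR-200b were detected in H3 alone while miR-200c, miR-141 and miR-429 were detected on no array. The summed fibroblast miRNAs (miR-199a-3p, miR-199a-5p and miR-214) were 2342 in H3 against 2469 to 7391, and liver miR-122, detected on 10 arrays, was 22.6 in H3 and at most 406 in the others. The part of these differences in the results for the cluster was not tested. Dixon's test, which looks for 1 value far from the rest, flagged no rat in the 22 diet-group sets of cluster levels and ratios. Values without H3 are given beside the main results.

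Detection split the cluster. miR-322, miR-503, miR-450a and miR-542-3p carried the detection flag on 12 of 12 arrays and miR-542-5p on 4 of 12, and miR-351 was detected on none. Among the star strands, miR-322* was detected on all 12 arrays, and miR-503*, miR-351* and miR-450a* on none. Of all 677 miRNAs, 162 were detected on all 12 arrays and 432 on none. For the Mir542 hairpin, then, the 3p arm was measured in every rat and the 5p arm in some. An undetected miRNA is listed at 0.1 by the scanner software, a placeholder and not a level, so for miR-351 there is no value to compare between the diets.

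miR-542-5p was detected in 1 of 6 control offspring (A89) and in 3 of 6 HF offspring (C51, H1 and C25), a difference that Fisher's exact test did not call (two-sided p = 0.545). The listed signals were 12.1 in A89, 11.0 in C51, 11.2 in H1 and 11.6 in C25. These 4 signals lay close together, at ranks of 172 to 199 among the detected miRNAs of their arrays, and each slide held 2 of the 4 arrays.

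Signal cannot be turned into molecules here, since probes differ in how brightly they report the same amount of RNA, so the following shares and ranks describe signal only. miR-322 made up 0.0972% of the summed signal of its array at the lowest (H3), 0.223% at the median and 0.284% at the highest (C25), and ranked between 41st and 61st of the detected miRNAs. miR-450a held 0.00701% to 0.0214% with ranks of 107 to 154. miR-503 held 0.00193% to 0.00478% with ranks of 155 to 195, miR-542-3p held 0.00226% to 0.00488% with ranks of 157 to 187, and miR-322* held 0.00222% to 0.00589% with ranks of 153 to 188. In every rat, therefore, miR-322 ranked above the other members, whereas miR-503, miR-542-3p and miR-322* overlapped in rank near the lower end of the list.

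The precision followed the brightness. The scanner's own error per array had a median of 7.28% of the signal for miR-322, 10.7% for miR-450a, 16.2% for miR-322* and 19.7% for both miR-503 and miR-542-3p. The coefficient of variation between the 12 rats was 22.3% for miR-322, 26.3% for miR-450a, 26.4% for miR-322*, 28.4% for miR-503 and 21.8% for miR-542-3p, beside a median of 22.3% over the 162 miRNAs detected on all arrays. Without H3 the coefficients were 12.1%, 19.02%, 19.5%, 24.3% and 15.2% in the same order, beside a median of 18.8%, and that of miR-542-3p was then smaller than the median scanner error.

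The scaled signal, which is the signal after each array was divided by its 75th percentile, was compared between the diets for each miRNA. No miRNA of the cluster passed the test between control and HF offspring, and none of the 193 tested miRNAs passed an adjusted p of 0.05 in limma (percent called: 0). At an unadjusted limma p under 0.05, 2 of the 193 passed (1.04%), and neither belonged to the cluster. Of the 4 cluster miRNAs tested, 3 had a log2 difference below 0, beside 154 of 193 over all tested miRNAs (79.8%) and a median of -0.17 over them. This background depended on the scaling and on H3. The median over all tested miRNAs was 0.0041 with the 75th percentile taken over the whole array, -0.000865 with quantile normalization, 0.14 with no scaling and -0.034 without H3. Fewer cells of a type and less RNA per cell cannot be told apart in whole muscle, so each value is the level in the tissue as sampled.

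miR-322 had a scaled signal of 926 to 1157 in control offspring, with a median of 1106, and of 445 to 1404 in HF offspring, with a median of 1141. The lowest and the highest of the 12 rats were both HF offspring, and all 6 control offspring lay between them. The means were 1071 ± 91.2 (SD, n = 6) and 1036 ± 335 (SD, n = 6). The log2 difference, HF minus control, was -0.13 (95% interval -0.65 to 0.39, limma adjusted p = 0.879, exact two-sided permutation p = 0.788). Without H3 it was 0.18 (exact permutation p = 0.0909), so its sign depended on that rat, and with no scaling between arrays it was also 0.18.

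miR-503, its close neighbour, ran from 11.0 to 20.3 in control offspring, with a median of 15.9, and from 9.42 to 24.5 in HF offspring, with a median of 17.5. The groups overlapped over the whole control range, and HF offspring again held both extremes. The means were 15.8 ± 3.34 and 17.1 ± 5.99 (SD, n = 6 each), a log2 difference of 0.061 (95% interval -0.47 to 0.59, limma adjusted p = 0.953, exact permutation p = 0.810), and 0.30 without H3 (exact permutation p = 0.171).

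miR-450a ran from 57.7 to 98.4 in control offspring, with a median of 76.0, and from 32.1 to 96.3 in HF offspring, with a median of 76.7. The medians were nearly equal, and the lowest rat was H3. The means were 76.6 ± 17.1 and 72.3 ± 23.2 (SD, n = 6 each), with a log2 difference of -0.14 (95% interval -0.69 to 0.42, limma adjusted p = 0.881, exact permutation p = 0.688), and of 0.16 without H3.

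miR-542-3p ran from 13.3 to 23.3 in control offspring, with a median of 17.3, and from 10.3 to 19.7 in HF offspring, with a median of 16.05. The highest rat was a control, C73, and the remaining ranges overlapped. The means were 17.8 ± 3.33 and 15.6 ± 3.90 (SD, n = 6 each), with a log2 difference of -0.21 (95% interval -0.62 to 0.21, limma adjusted p = 0.700, exact permutation p = 0.294), and of -0.015 without H3. miR-322* had 20.1 ± 4.78 in control and 20.3 ± 6.28 in HF offspring (SD, n = 6 each), a log2 difference of -0.018 (exact permutation p = 0.946), and of 0.25 without H3 (exact permutation p = 0.173). The intervals reach beyond 0.5 on the log2 scale in at least one direction for all 5, so the 12 arrays leave room for changes of that size.

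**Figure D2:**
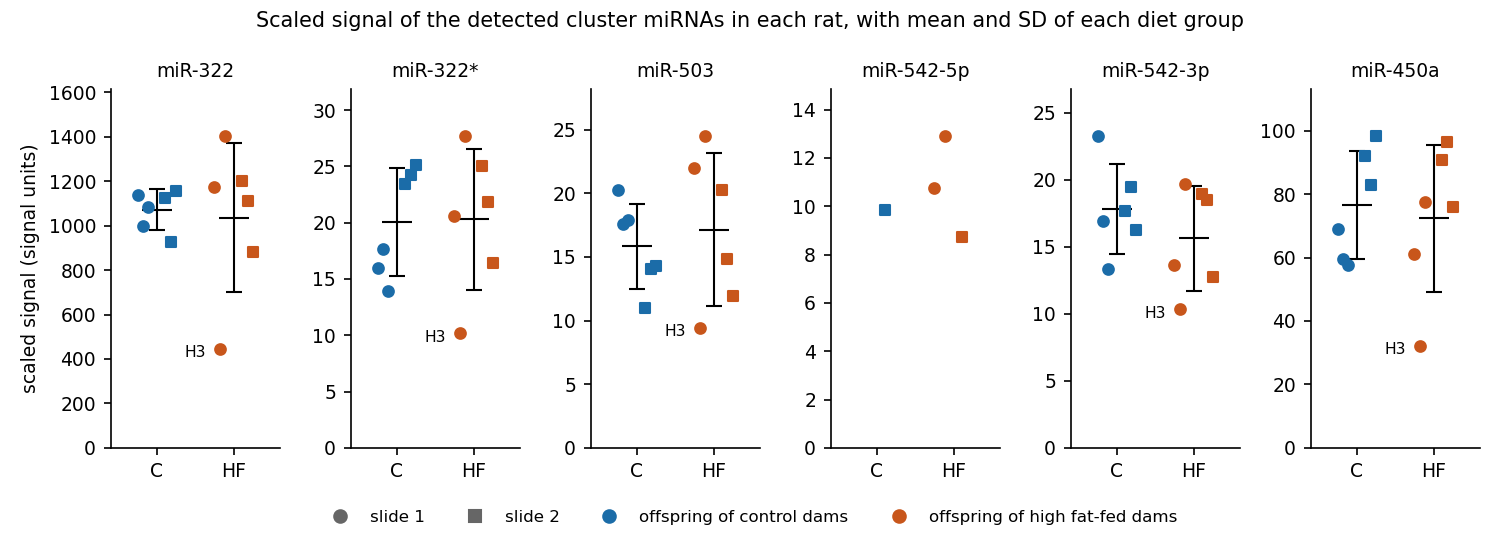
Scaled signal (signal units, linear axis from 0) of each detected miRNA in control (C, blue) and HF (HF, orange) offspring, 1 point per rat, circles for slide 1 and squares for slide 2, with the mean and SD of 6 rats. For miR-542-5p only the 4 rats with detection are drawn. H3 is the lowest rat in each of the 5 panels where it is marked, and for miR-450a all squares but 1 lie above all circles.

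Within each slide, where 3 control and 3 HF offspring were side by side, the log2 differences between the diets were -0.25 on slide 1 and -0.012 on slide 2 for miR-322, -0.11 and 0.23 for miR-503, -0.21 and -0.059 for miR-450a, and -0.31 and -0.11 for miR-542-3p. All 4 values were lower on slide 1, which held H3.

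The miRNAs that share a seed with the cluster were read in the same fit. For the seed of miR-322, the log2 differences between HF and control offspring were -0.15 for miR-15b, -0.14 for miR-16, -0.30 for miR-195 and -0.32 for miR-497, and for the seed of miR-351 they were -0.26 for miR-125a-5p and -0.36 for miR-125b-5p. All 6 lay below 0, none passed the test (limma adjusted p from 0.685 to 0.805), and the median over all tested miRNAs was also below 0 under this scaling, though not under all of the others. miR-16 and miR-195, both detected in all rats, had scaled signals of 4659 ± 627 and 4917 ± 471 in control offspring and of 4240 ± 695 and 4133 ± 1143 in HF offspring (SD, n = 6 each). Thus, while miR-351 itself was not detected, its seed was present in the muscle through miR-125a-5p and miR-125b-5p, which were detected on 12 of 12 arrays.

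**Figure D3:**
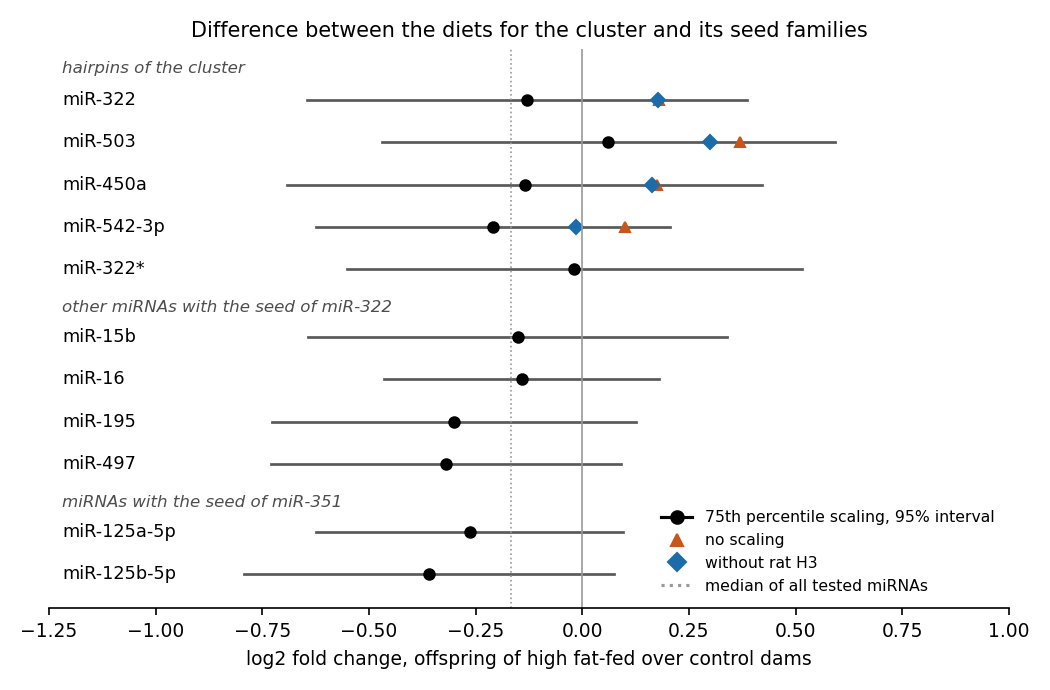
Log2 fold change of HF over control offspring (horizontal axis) for the detected miRNAs of the cluster, for the miRNAs with the seed of miR-322 and for those with the seed of miR-351. Black points and bars are the limma estimates with 95% intervals, triangles are estimates with no scaling and diamonds without rat H3, drawn for 4 cluster miRNAs, and the dotted line is the median of all 193 tested miRNAs, -0.17. Every interval includes 0.

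The ratio of 2 miRNAs in the same rat does not change with the scaling between arrays, and so it asks whether the diet shifted one member of the cluster against another. None of the 6 ratios among the 4 miRNAs differed between the diets after adjustment over all 13041 pairs of detected miRNAs (percent called: 0, and at an unadjusted exact p under 0.05, 1.78%). The log2 ratio of miR-322 over miR-503 was 6.10 ± 0.343 in control and 5.91 ± 0.263 in HF offspring (SD, n = 6 each), a difference of -0.19 (exact permutation p = 0.303), or -0.12 without H3. For miR-322 over miR-450a the means were 3.83 ± 0.319 and 3.84 ± 0.315 (SD, n = 6 each), a difference of 0.0045 (exact permutation p = 0.985), or 0.013 without H3. The largest of the 6 differences was 0.27, for miR-503 over miR-542-3p (exact permutation p = 0.247), or 0.32 without H3.

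Instead, the ratios separated the slides. For miR-322 over miR-450a the log2 ratios on slide 1 were 4.04 in C73, 4.07 in A110, 4.23 in C60, 4.26 in C51, 3.79 in H3 and 4.18 in H1, and on slide 2 they were 3.61 in H10, 3.48 in A89, 3.56 in A75, 3.73 in C25, 3.53 in H20 and 3.54 in A37. The lowest rat of slide 1 lay above the highest of slide 2, and control and HF offspring were mixed on both. Slide 2 was lower by 0.52 (exact permutation p = 0.0022, the smallest this design allows; adjusted over all pairs, permutation p = 0.030), and the difference was -0.58 without H3.

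miR-503 over miR-450a showed the widest separation. Its log2 ratio was between -1.77 and -1.48 on slide 1 and between -3.07 and -2.17 on slide 2. The slides did not overlap, and slide 2 was lower by 0.97 (exact permutation p = 0.0022, adjusted permutation p = 0.030, -0.99 without H3). For miR-322 over miR-503, slide 2 was higher by 0.45 (exact permutation p = 0.0043, adjusted permutation p = 0.044, 0.40 without H3), with values of 5.56 to 5.92 on slide 1 and 5.89 to 6.68 on slide 2.

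These were 3 of the 6 ratios, beside 9.87% of all 13041 pairs called in the same way (23.9% at an unadjusted exact p under 0.05). miR-450a over miR-542-3p was higher on slide 2 by 0.50 (exact permutation p = 0.0065, adjusted permutation p = 0.056) and miR-503 over miR-542-3p lower by 0.47 (exact permutation p = 0.032, adjusted permutation p = 0.16), neither of which passed. miR-322 over miR-542-3p was -0.019 (exact permutation p = 0.929). Whether a slide stands for a hybridisation, a labelling or an extraction batch is not given in the sources used here.

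In the levels themselves, 1 of the 4 miRNAs differed between the slides, beside 9.84% of the 193 tested miRNAs. At an unadjusted exact p under 0.05 the slides differed in 18.1% of all tested miRNAs, and 7.25% were higher on slide 2. The scaled signal of miR-450a was 32.1 to 77.6 on slide 1 and 75.9 to 98.4 on slide 2, with means of 59.5 ± 15.3 and 89.4 ± 8.504 (SD, n = 6 each). Slide 2 was higher by 0.63 on the log2 scale (exact permutation p = 0.0043, adjusted permutation p = 0.044) and by 0.48 without H3. miR-503 went the opposite way, with a log2 difference of -0.34 (exact permutation p = 0.182, -0.51 without H3, exact permutation p = 0.013), and miR-322 and miR-542-3p differed by 0.11 and 0.13 (exact permutation p = 0.853 and 0.535), or by -0.10 and 0.025 without H3.

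**Figure D4:**
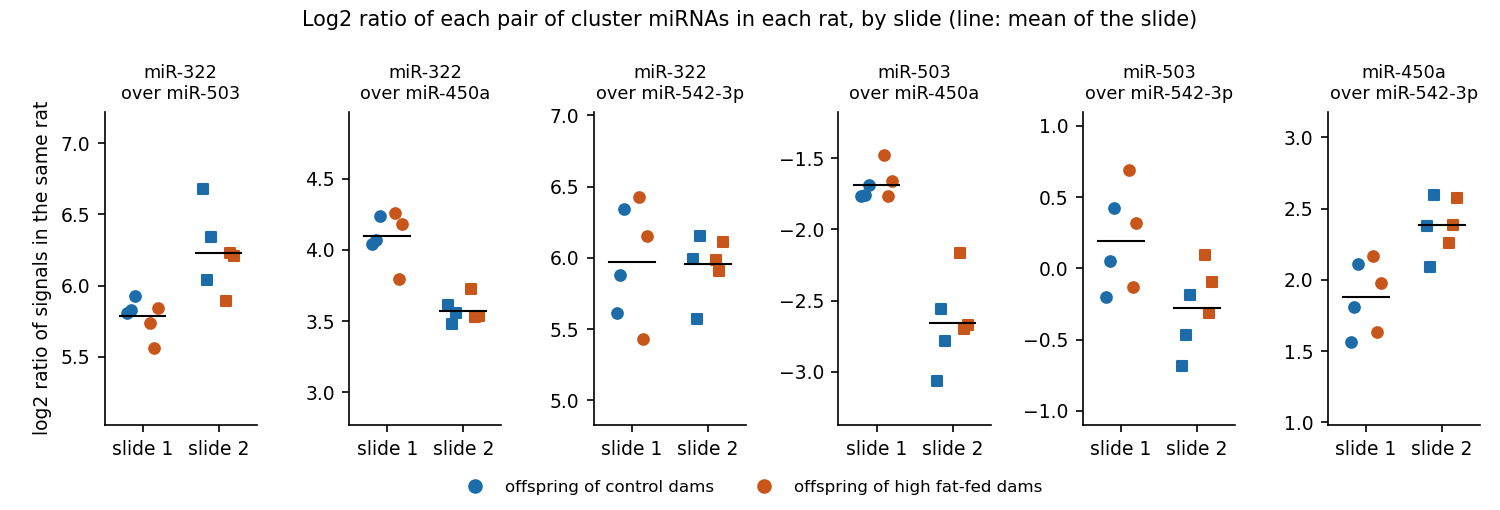
Log2 ratio of each pair of cluster miRNAs in each rat (vertical axes, each spanning the same width) by slide, with a line at the mean of the slide, blue for control and orange for HF offspring. The slides do not overlap for miR-322 over miR-450a and for miR-503 over miR-450a, and both diets are found throughout each slide.

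Since the hairpins sit next to each other, the last question was how far the levels of their miRNAs moved together over the 12 rats. Among all 13041 pairs of detected miRNAs the median Pearson r was 0.222, and 69.1% of pairs were above 0, so that a positive r is common on these arrays. After adjustment over all pairs, 1 of the 6 cluster pairs was called, beside 4.92% of all pairs (4.83% counting those with r above 0). This was miR-322 with miR-503, with r = 0.732 (permutation p = 0.0014, adjusted permutation p = 0.037) and Spearman's rho = 0.755 (permutation p = 0.0065, adjusted permutation p = 0.11). Its size fell most without H3, and its call was close to the threshold. Without the 2 rats farthest from the median of miR-322, H3 and A37, r was 0.544, and without H3 alone it was 0.593 (adjusted permutation p = 0.304). The adjusted p rose above the threshold when any 1 of 9 of the 12 rats was left out, namely C73, C51, C60, H3, H1, C25, H20, A37 or A89, although r stayed at 0.687 or higher when one of these other than H3 was left out.

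The other pairs with miR-322 did not pass the adjustment. miR-322 with miR-450a had r = 0.762 (permutation p = 0.029, adjusted permutation p = 0.179) and rho = 0.413 (permutation p = 0.183, adjusted permutation p = 0.531). miR-322 with miR-542-3p had r = 0.687 (permutation p = 0.013, adjusted permutation p = 0.117) and rho = 0.531 (permutation p = 0.081, adjusted permutation p = 0.365). With the slides pooled, both coefficients depended on H3, the lowest rat in each of these miRNAs. Without H3 r fell to 0.097 and 0.075, and without H3 and A37 it was 0.161 and 0.086. With each slide's mean removed and H3 left out, r was 0.847 for miR-322 with miR-450a and 0.099 for miR-322 with miR-542-3p.

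miR-450a with miR-542-3p had r = 0.673 (permutation p = 0.016, adjusted permutation p = 0.131) and rho = 0.434 (permutation p = 0.161, adjusted permutation p = 0.501), with r = 0.240 without H3 and 0.197 without H3 and C60. miR-503 with miR-542-3p had r = 0.507 (permutation p = 0.092, adjusted permutation p = 0.324) and rho = 0.490 (permutation p = 0.109, adjusted permutation p = 0.422), and 0.072 without H3 and 0.138 without H3 and H1. miR-503 with miR-450a had r = 0.220 (permutation p = 0.506, adjusted permutation p = 0.748) and rho = -0.098 (permutation p = 0.766, adjusted permutation p = 0.917), and r turned to -0.54 without H3 and to -0.53 without H3 and H1.

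The slides changed this picture. Within slide 1 (n = 6 rats) r was 0.990 for miR-322 with miR-503, 0.982 for miR-322 with miR-450a and 0.976 for miR-503 with miR-450a, and within slide 2 (n = 6) it was 0.482, 0.892 and 0.302. H3 was on slide 1. With each slide's mean removed, and rats permuted without regard to slide, r over the 12 rats was 0.973 for miR-322 with miR-450a (adjusted permutation p = 0.0032), 0.876 for miR-322 with miR-503 (adjusted permutation p = 0.016), 0.835 for miR-503 with miR-450a (adjusted permutation p = 0.035) and 0.782 for miR-450a with miR-542-3p (adjusted permutation p = 0.026). The share of all pairs called was counted for uncentred values only, so calls on centred values have no background beside them. With H3 left out as well, miR-322 with miR-450a was at 0.847 (adjusted permutation p = 0.038) and was the only one of the 6 pairs called. This setting was chosen after seeing the data. In that setting r was 0.569 for miR-322 with miR-503, 0.382 for miR-503 with miR-450a, 0.403 for miR-450a with miR-542-3p, 0.177 for miR-503 with miR-542-3p and 0.099 for miR-322 with miR-542-3p.

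The relations were also read within each diet. Within the 6 control offspring r was -0.0085 for miR-322 with miR-503, 0.2504 for miR-322 with miR-450a and -0.059 for miR-322 with miR-542-3p. It was -0.77 for miR-503 with miR-450a, 0.127 for miR-503 with miR-542-3p and 0.229 for miR-450a with miR-542-3p. Within the 6 HF offspring the same pairs had r of 0.897, 0.857, 0.859, 0.565, 0.748 and 0.845. The HF values all include H3, and the remaining 5 HF offspring were too few for a coefficient of their own. Both diet groups pool 3 rats from each slide, and slide means were not removed here. The slides differed in miR-450a and in the ratio of miR-503 over miR-450a. The difference between the groups in these relations was not tested.

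**Figure D5:**
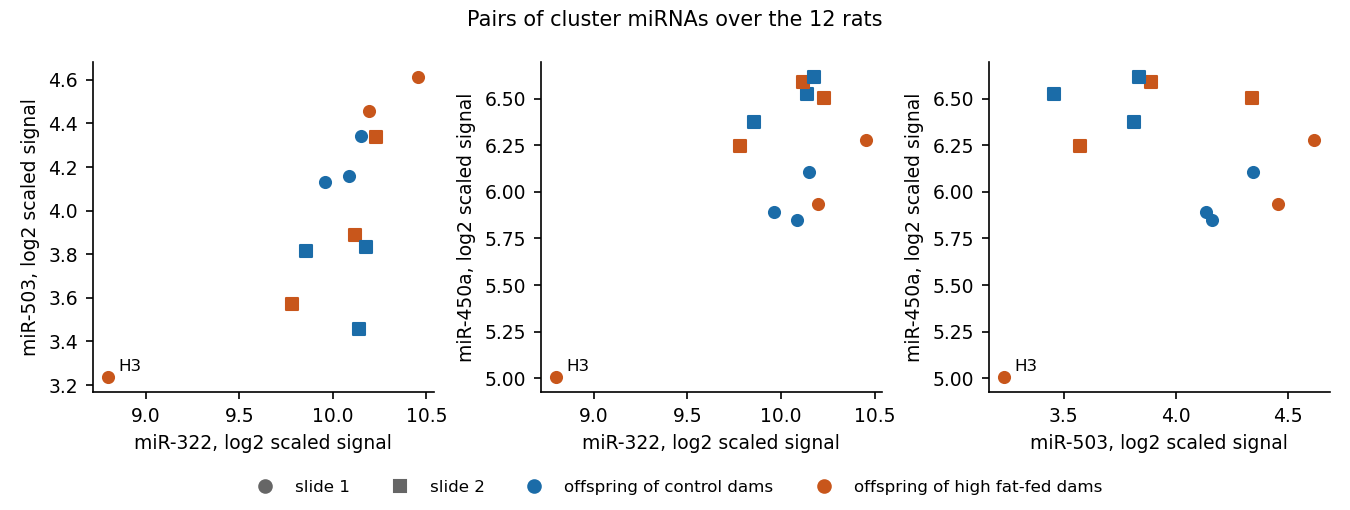
Log2 scaled signal of miR-322 against miR-503, miR-322 against miR-450a and miR-503 against miR-450a, 1 point per rat, circles for slide 1 and squares for slide 2, blue for control and orange for HF offspring. H3 has the lowest value of each miRNA, far below the others in miR-322 and miR-450a but close to H10 in miR-503. In the panels with miR-450a the 2 slides form separate bands.

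The arms of the Mir322 hairpin were compared in the same way. With the slides pooled, miR-322 and miR-322* had r = 0.773 (permutation p = 0.0056, adjusted permutation p = 0.075), whereas miR-450a and miR-322* had r = 0.860 (permutation p = 0.00084, adjusted permutation p = 0.028), and without H3 these were 0.352 and 0.672. With each slide's mean removed and H3 left out, the order turned, with r of 0.618 and 0.568. The difference between the 2 coefficients was not tested.

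Last, the miRNAs whose levels most resembled each member were listed by Pearson r over the 12 rats, as a description. For miR-322 they were miR-126 (0.957), miR-24 (0.924), miR-185 (0.922), miR-143 (0.918) and miR-196b (0.916), where miR-126 is an endothelial and miR-143 a smooth muscle miRNA. Without H3 these coefficients were 0.679, 0.552, 0.694, 0.467 and 0.305, and H3 was also the lowest rat in miR-126 and miR-143. Its cluster neighbours miR-450a, miR-503 and miR-542-3p stood at places 23, 29 and 41 of that list.

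For miR-503 the nearest were miR-34a (0.749), miR-140 (0.734), miR-322 (0.732), let-7e (0.728) and let-7b (0.727), so that its neighbour miR-322 was at place 3. Without H3 these were 0.721, 0.508, 0.593, 0.573 and 0.512, and miR-322 was at place 6. For miR-450a they were miR-126* (0.986), miR-22* (0.958), miR-145 (0.942), miR-352 (0.931) and miR-26b (0.927), and miR-126* stayed first without H3, at 0.964. For miR-542-3p they were miR-146a (0.912), miR-140* (0.894), miR-192 (0.834), miR-140 (0.817) and miR-301a (0.813), and without H3 these were 0.800, 0.704, 0.708, 0.528 and 0.619. Over all 12 rats miR-322 was the only one of the 6 members among the 5 nearest miRNAs of another member, and without H3 it was not. For the star strand miR-322*, miR-450a stood at place 4 both with and without H3. All these lists pool the slides, which differed in miR-450a, and likeness with slide means removed was not listed.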

How the data were processed

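For each array the authors deposited what the scanner software gave per miRNA, namely the Cy3 signal intensity summed over its probes after background subtraction, the error of that sum and whether the miRNA was detected. The software version and genome build are not given in the sources used here. A deposited value table held the same intensity values (0 entries differed). Human muscle from the study was not used here.

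The 22 control rows were left out. The signals of an array were divided by their 75th percentile, taken over the 162 miRNAs with detection on every array, and multiplied by the geometric mean of the 12 percentiles. Values under 5.17 were set to 5.17 before log2 was taken. For the diets, limma 3.58.1 was run in R 4.3.3, adjusting by Benjamini-Hochberg over 193 miRNAs, those with detection on 6 or more arrays. Single values, within-rat ratios and slides were compared by exact two-sided permutation over the 924 assignments (462 without H3, after scaling the other rats anew), and correlations by 100000 permutations, adjusted over 13041 pairs with scipy 1.17.1 and numpy 2.4.6. Scripts were tested on simulated data. Slides were read from the array identifiers. Sequences and positions are RefSeq's for GRCr8, in which 555 of the 677 array names had a match. The text names the 6 miRNAs, their star strands, the miRNAs sharing a seed with them, the 5 most alike in level and cell type markers. The members and lists were chosen with earlier results of these data known. The alternatives changed the scaling, floor, detection filter, slide or label letter block, array weights and test, or left out each rat. The number of arrays limits the precision.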

Additional observations from a re-analysis of the deposited data

How the results depend on the processing

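No miRNA of the array passed an adjusted p of 0.05 for diet under any alternative run, and the number at an unadjusted p under 0.05, 2 as reported, was 5 with quantile normalization, 1 with only miRNAs detected on all arrays, 8 with slide as a block, 12 with array weights and 1 (without H3 or A37) to 15 (without H1) when 1 rat was left out. The diet difference of miR-322 was 0.041 when the percentile was taken over the whole array, 0.049 under quantile normalization, 0.18 with no scaling, 0.047 with array weights, and 0.19 with slide as a block and H3 left out, an alternative chosen after seeing the data. For miR-450a these were 0.037, 0.035, 0.17, 0.17 and 0.12, and miR-542-3p was 0.10 with no scaling. miR-503 kept its sign and was 0.37 with no scaling and 0.35 with slide as a block and H3 left out, where its limma p was 0.012 before and 0.991 after adjustment. With 1 rat left out, the range was -0.24 to 0.18 for miR-322, -0.058 to 0.30 for miR-503 and -0.22 to 0.16 for miR-450a, with the sign turned without H3 or H10 for miR-322 and miR-450a and without C51, H1 or C25 for miR-503. With the floor 4 times higher, miR-542-5p lay at the floor in all rats and gave no value. The correlation of miR-322 with miR-503 was 0.390 with the floor 4 times higher and 0.569 with values centred within slide and H3 left out, losing its call in both, and 0.593 to 0.847 with 1 rat left out, losing its call for 9 of the 12 rats. Relations that gained a call were miR-322 with miR-450a (0.878 with the percentile over the whole array, 0.886 with no scaling, 0.973 centred within slide, 0.847 centred and without H3), miR-322 with miR-542-3p (0.891 and 0.798 with the first 2 of these), miR-450a with miR-542-3p (0.921 and 0.857 with the same, 0.926 with quantile normalization, 0.782 centred within slide) and miR-503 with miR-450a (0.835 centred within slide, and -0.54 to 0.361 with 1 rat left out). The share of all pairs called was counted only under the reported scaling without centring, so these gained calls have no background beside them. Centring within slide without H3 was also chosen after seeing the data. With the floor 4 times higher, at which most values of miR-503 and miR-542-3p were at the floor, miR-503 with miR-542-3p was -0.12, miR-450a with miR-542-3p was -0.037, and the diet difference in the ratio was -0.10 for miR-322 over miR-542-3p and -0.11 for miR-450a over miR-542-3p. With 1 rat left out, the diet difference in the ratio ran from -0.080 to 0.085 for miR-322 over miR-450a, from -0.0061 to 0.19 for miR-322 over miR-542-3p and from -0.031 to 0.18 for miR-450a over miR-542-3p. The causes were not tested. No paired analysis was possible because the labels give the rats no shared replicate numbers.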
